A study of Homo sapiens with 12 samples.

Results

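The genes described here are 4 metallothioneins, MT2A, MT1X, MT1E and MT1F, and the zinc transporter gene SLC30A2, found by their symbols. They are 5 of the 3699 genes in the deposited table. RNA was sequenced from SW480 cells, a line derived from a human colorectal adenocarcinoma, in 4 groups of 3 libraries: cells treated with GLY (12, 13 and 14 h in the labels of replicates 1, 2 and 3, while the protocol text gives 12 h for every treatment), with GLY and PUE together (GLY_PUE, 12 h), with PUE alone (12 h), and untreated cells. The agents are named only by these abbreviations and no dose is given in the sources used here. The series' title places the work in a study of how a herbal decoction acts on Wnt signalling. All groups were of 1 line, and the origin of the replicates is not labelled, so that the spread behind every p-value is that of these libraries and may be technical. The table is a selected list: every gene in it reached an absolute log2 ratio of 1 with a q-value of 0.001 or less in at least 1 of the authors' own comparisons, and 2878 of the 3699 did so in GLY against untreated. A change of the 5 genes somewhere in these data was therefore a condition of their being listed.

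Metallothioneins are small cytosolic proteins rich in cysteine, whose thiol groups bind zinc and copper and also toxic metals such as cadmium. Their genes are induced by metals through the transcription factor MTF1, which binds short metal response elements (MREs) near the start site, and many are also induced by oxidative stress and glucocorticoids. SLC30A2 encodes ZnT2, a transporter that moves zinc out of the cytosol into vesicles and is known best for loading zinc into milk. In colon epithelium, metallothioneins buffer zinc and take up excess metal.

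All 5 genes were higher in both groups that received GLY than in the groups that did not. In GLY against untreated libraries the fold changes were 3.56 for MT2A, 3.31 for MT1X, 2.70 for MT1E, 2.45 for MT1F and 5.60 for SLC30A2. In GLY_PUE against untreated libraries they were 3.28, 3.26, 2.41, 1.86 and 4.17 in the same order. With PUE alone they lay between 0.933 and 1.07. All 5 passed the test upward in both comparisons with GLY (edgeR, adjusted p under 0.05). Of the 3429 genes tested, 84.3% were called in GLY against untreated (19.7% upward), and 77.3% in GLY_PUE against untreated (20.2% upward). The 2 comparisons share the untreated libraries.

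The 4 metallothionein genes lie within 75.6 kb on the same strand of chromosome 16, in the order MT2A (chr16:56608584-56609497), MT1E (chr16:56625781-56627112), MT1F (chr16:56657959-56659303) and MT1X (chr16:56682470-56684196), by RefSeq on GRCh38.p14. SLC30A2 is at chr1:26037252-26046118 on the reverse strand. The authors' genome build is not given in the sources used here, so these positions are RefSeq's. The coding sequences of the metallothioneins are printed because the 4 genes are near copies of each other, which bears on how reads were shared out between them. Each runs over 3 exons and 186 bases with its stop codon (GENCODE release 29, GRCh38), and capitals in the last 3 mark bases that differ from MT2A.
MT2A: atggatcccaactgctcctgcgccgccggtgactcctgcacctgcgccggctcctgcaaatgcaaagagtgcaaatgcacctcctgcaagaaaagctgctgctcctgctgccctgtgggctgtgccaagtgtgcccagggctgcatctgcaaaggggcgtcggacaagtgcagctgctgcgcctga
MT1X: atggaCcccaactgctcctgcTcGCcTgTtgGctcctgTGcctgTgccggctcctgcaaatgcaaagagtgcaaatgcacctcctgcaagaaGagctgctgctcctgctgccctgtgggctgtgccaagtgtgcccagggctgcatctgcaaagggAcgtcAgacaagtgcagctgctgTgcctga
MT1E: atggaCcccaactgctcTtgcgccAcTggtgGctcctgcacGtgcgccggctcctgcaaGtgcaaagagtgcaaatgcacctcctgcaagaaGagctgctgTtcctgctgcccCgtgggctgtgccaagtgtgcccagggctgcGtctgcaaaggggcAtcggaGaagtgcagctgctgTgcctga
MT1F: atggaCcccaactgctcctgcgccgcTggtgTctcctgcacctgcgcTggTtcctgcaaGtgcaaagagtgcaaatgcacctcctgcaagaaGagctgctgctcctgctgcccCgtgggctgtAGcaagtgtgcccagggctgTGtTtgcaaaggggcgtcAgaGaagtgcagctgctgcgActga
Of the 61 codons before the stop, 20 are cysteine codons (tgc or tgt) in each of the 4 genes, or 32.8%, against 7 of 372 in SLC30A2. Between MT2A and the others, 14 bases differ for MT1X, 14 for MT1E and 16 for MT1F, and identity among the 4 ranges from 88.7% to 92.5%. The longest stretch without a difference is 63 bases, shared by MT2A and MT1X. MT1X and MT1F share 53 bases, MT1E and MT1F 50, and MT1X and MT1E 41. A read lying wholly inside such a stretch fits both genes. How such reads were counted is not given in the sources used here, but many deposited counts are not whole numbers: the count of MT2A was a whole number in 0 of 12 libraries, MT1X in 1, MT1E in 2 and MT1F in 1, against 12 of 12 for SLC30A2 (within 1e-09). Over all listed genes and libraries 58.2% of counts were whole numbers, so fractions are common in the table. How many reads lie wholly inside a shared stretch depends on the read length, which is not stated here. The values of single metallothioneins are uncertain by any reads they share. SLC30A2 shares no stretch longer than 12 bases with any of them.

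Depth was 19.7 to 21.4 M reads per library, estimated from the relation of counts to length-scaled values. In GLY_PUE, PUE and untreated groups the library numbered 3 stood apart from numbers 1 and 2, and in GLY it was replicate 1 that stood furthest from the others. Over the listed genes, the chi-square per gene between numbers 1 and 2 was 2.13 in PUE and 2.67 in untreated libraries, and between number 3 and the others 70.4 to 76.4 in these 2 groups. In GLY_PUE it was 5.10 between numbers 1 and 2, and 52.2 and 62.1 between number 3 and these. GLY replicate 1 differed from GLY replicates 2 and 3 by 182 and 257, and GLY replicates 2 and 3 from each other by 74.9. In GLY the labelled time also runs with the number (12, 13 and 14 h), so differences by replicate and by labelled time cannot be told apart there. Results are also given within numbers or without number 3, although libraries of the same number are not labelled as matched. Levels in CPM below are counts scaled to a library of 1000000 reads by the estimated totals. A count of 3, the limit that a count of 0 allows, is 0.152 CPM in the shallowest library, for counting error only. The lowest member count was 53 reads, in SLC30A2.

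MT2A, the metallothionein with the most reads, had 2469, 1421 and 1327 CPM in GLY replicates 1, 2 and 3, and 1656, 1606 and 1535 CPM in GLY_PUE libraries. It had 525, 442 and 411 CPM in PUE libraries, and 560, 517 and 387 CPM in untreated libraries. The 6 libraries with GLY lay above the 6 without it, with no overlap, and GLY replicate 1 was the highest of all. How many tested genes split this way, 6 against 6, was not computed, for MT2A or for the members below. Every GLY library lay above every untreated one for 17.8% of tested genes. Means were 1739 ± 634 CPM in GLY, 1599 ± 60.8 in GLY_PUE, 459 ± 58.7 in PUE and 488 ± 89.7 in untreated libraries (SD, n = 3 each). The log2 fold change was 1.83 ± 0.26 (SE) in GLY against untreated (edgeR's quasi-likelihood test, Benjamini-Hochberg adjusted p = 0.000163). It was 1.71 ± 0.26 in GLY_PUE against untreated (edgeR adjusted p = 0.000255). Within replicate numbers 1, 2 and 3, GLY over untreated came to 4.41, 2.75 and 3.43 times, and GLY_PUE over untreated to 2.96, 3.10 and 3.96 times. Without GLY replicate 1 the log2 fold change of GLY was 1.49. In RNA from whole cultures, more cells expressing a gene and more RNA per cell cannot be told apart.

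**Figure D1:**
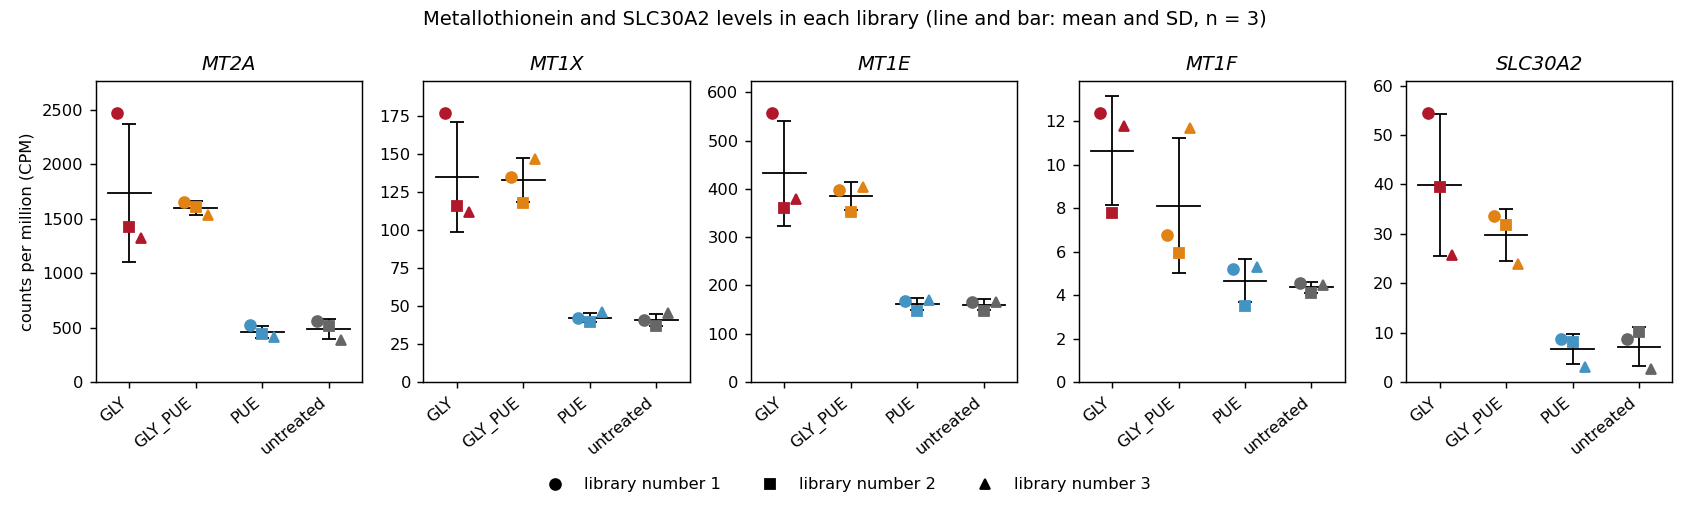
Levels in CPM (linear axis from 0) of the 5 genes in each of the 12 libraries, by group, with points shaped by library number and the mean and SD of 3 libraries. For each gene the 6 points of GLY and GLY_PUE lie above the 6 points of PUE and untreated, and GLY replicate 1 is the highest point in every panel. How many other tested genes split this way was not computed.

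MT1E and MT1X, isoforms of the metallothionein-1 group, followed with lower levels and less spread among libraries without GLY. MT1E had 557, 361 and 378 CPM in GLY, 399, 352 and 405 in GLY_PUE, 167, 147 and 169 in PUE and 167, 147 and 166 in untreated libraries. PUE and untreated libraries of the same number differed by at most 1.02 times for MT1E. Its log2 fold change was 1.43 ± 0.21 in GLY (edgeR adjusted p = 0.00021) and 1.27 ± 0.21 in GLY_PUE (edgeR adjusted p = 0.000442), each against untreated.

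MT1X had 177, 116 and 112 CPM in GLY libraries and 135, 118 and 146 CPM in GLY_PUE libraries, against 40.4, 36.6 and 45.1 CPM in untreated libraries. PUE libraries had 42.0, 39.3 and 45.7 CPM. The lowest library with GLY was at 2.45 times the highest without it. Its log2 fold change was 1.73 ± 0.23 in GLY (edgeR adjusted p = 0.000116) and 1.71 ± 0.23 in GLY_PUE (edgeR adjusted p = 0.000142), each against untreated.

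MT1F, another isoform and by far the lowest, had 12.4, 7.78 and 11.8 CPM in GLY, 6.76, 5.92 and 11.7 in GLY_PUE, 5.19, 3.51 and 5.29 in PUE and 4.55, 4.08 and 4.45 in untreated libraries. These are 71.3 to 262 reads per library. Groups with and without GLY still did not overlap, but GLY_PUE replicates 1 and 2 lay close to the PUE libraries. MT1F rose by 1.29 ± 0.31 on the log2 scale in GLY against untreated (edgeR adjusted p = 0.00317). In GLY_PUE against untreated it rose by 0.90 ± 0.31 (edgeR adjusted p = 0.0201). That call rests on GLY_PUE replicate 3 and on untreated replicate 2: it was 0.54 without the first (edgeR adjusted p = 0.111), 0.85 without the second (adjusted p = 0.058) and 0.56 without all libraries numbered 3 (adjusted p = 0.133).

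Levels per length can be set side by side between genes. On the FPKM scale, MT2A averaged 4186 ± 1525 in GLY, 3850 ± 146 in GLY_PUE, 1106 ± 141 in PUE and 1175 ± 216 in untreated libraries (SD, n = 3 each). It held rank 2 of the 3699 listed genes by mean level in GLY and GLY_PUE libraries, rank 3 in untreated and rank 4 in PUE libraries. MT1E averaged 920 ± 231, 819 ± 61.8, 343 ± 25.6 and 340 ± 23.8 FPKM in GLY, GLY_PUE, PUE and untreated libraries, and MT1X 366 ± 98.8, 361 ± 39.3, 115 ± 8.73 and 111 ± 11.6 FPKM. MT1F averaged 26.2 ± 6.29, 19.9 ± 7.51, 11.5 ± 2.44 and 10.7 ± 0.55 FPKM, and SLC30A2 16.2 ± 5.81, 12.1 ± 2.10, 2.70 ± 1.25 and 2.89 ± 1.61 FPKM, in the same order of groups. The order MT2A, MT1E, MT1X, MT1F, SLC30A2 held in the means of all 4 groups. MT1F and SLC30A2 are neighbours whose levels overlapped among GLY libraries (18.9 to 30.5 against 10.5 to 22.1 FPKM).

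The 4 metallothioneins summed to 5499 ± 1855 FPKM in GLY, 5050 ± 147 in GLY_PUE, 1575 ± 147 in PUE and 1637 ± 204 in untreated libraries (SD, n = 3 each). Their reads made up 0.232%, 0.212%, 0.0667% and 0.0693% of each library on average, in that order of groups. Within the sum MT2A held 75.7% ± 2.04 in GLY, 76.2% ± 1.98 in GLY_PUE, 70.1% ± 3.08 in PUE and 71.4% ± 4.97 in untreated libraries. MT1E held 17.0%, 16.2%, 21.8% and 21.0%, MT1X 6.76%, 7.16%, 7.36% and 6.89%, and MT1F 0.496%, 0.394%, 0.729% and 0.662%. The shares of MT2A in GLY and untreated libraries overlapped (73.7 to 77.8% against 65.7 to 74.7%).

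SLC30A2 had 54.4, 39.4 and 25.8 CPM in GLY replicates 1, 2 and 3, and 33.6, 31.7 and 23.8 CPM in GLY_PUE libraries. PUE libraries had 8.65, 8.17 and 3.10 CPM and untreated libraries 8.70, 10.1 and 2.61 CPM. Libraries with GLY lay above those without it, and in all 4 groups the library numbered 3 was the lowest. Its log2 fold change was 2.48 ± 0.50 in GLY against untreated (edgeR adjusted p = 0.00116) and 2.06 ± 0.49 in GLY_PUE against untreated (edgeR adjusted p = 0.00332). It had the highest fold change and the widest interval of the 5 genes, 5.60-fold in GLY with 95% bounds of 2.64 and 11.9.

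Within replicate numbers 1, 2 and 3, SLC30A2 in GLY was 6.26, 3.92 and 9.88 times its untreated level, and in GLY_PUE 3.87, 3.16 and 9.12 times. The libraries numbered 3 held 0.550 of the mean of numbers 1 and 2 in GLY, 0.729 in GLY_PUE, 0.369 in PUE and 0.279 in untreated libraries. Its fold within number 3 was thus the highest of the 3 numbers in both comparisons. Without untreated replicate 3 the log2 fold changes were 2.09 in GLY and 1.66 in GLY_PUE (edgeR adjusted p = 0.00329 and 0.00976). Without all libraries numbered 3 they were 2.32 ± 0.24 and 1.80 ± 0.24 (edgeR adjusted p = 0.000927 and 0.0016). MT2A was also lower in number 3 of all 4 groups, at 0.682 of the mean of numbers 1 and 2 in GLY, 0.941 in GLY_PUE, 0.851 in PUE and 0.719 in untreated libraries. MT1X, MT1E and MT1F were not lower in number 3 of the GLY_PUE, PUE and untreated groups, where the same ratio ran from 1.03 to 1.84, and in GLY it was 0.766 for MT1X, 0.824 for MT1E and 1.17 for MT1F.

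**Figure D2:**
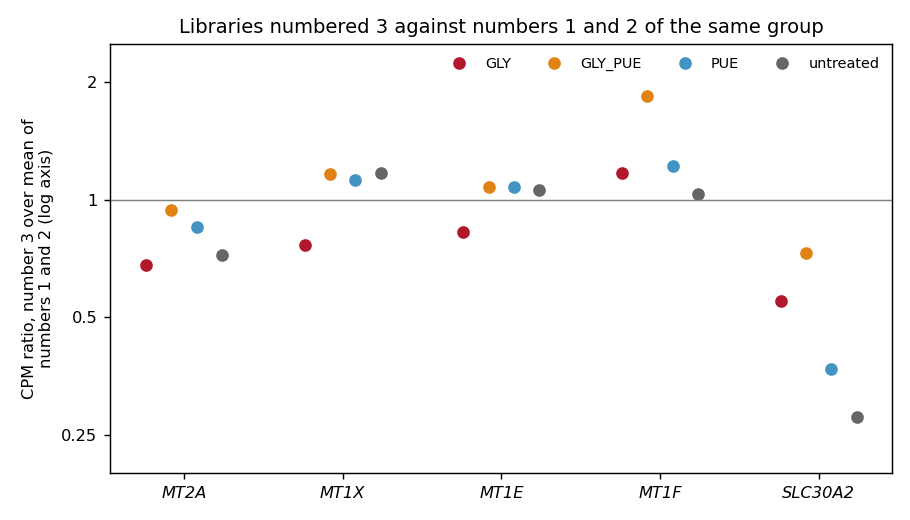
CPM of the library numbered 3 over the mean of numbers 1 and 2 in the same group (log axis), for each gene and group. SLC30A2 and MT2A lie below 1 in all 4 groups, SLC30A2 lowest in untreated libraries at 0.279, and MT1F lies above 1 in all 4, with the highest point at 1.84 in GLY_PUE.

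Relative to library totals, 674 genes were called upward and 2216 downward in GLY against untreated, and 694 and 1957 in GLY_PUE against untreated. TMM scaling within the table turns this balance, with 812 upward and 346 downward in GLY and 817 and 394 in GLY_PUE, each against untreated. For 5 of 5 members every GLY library lay above every untreated one, as for 17.8% of tested genes, and every GLY_PUE library above every untreated one, as for 21.8%. The median log2 fold change of the 5 was 1.73 in GLY against untreated, beside −1.15 over all tested genes, and 1.71 beside −1.03 in GLY_PUE against untreated. By size the members stood at places 97 (SLC30A2), 205 (MT2A), 242 (MT1X), 352 (MT1E) and 422 (MT1F) from the top of 3429 genes in GLY against untreated.

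GLY_PUE against PUE asks what GLY added in the presence of PUE, and shares the GLY_PUE libraries with the comparison above. All 5 members were called upward, where 77.8% of tested genes were called and 20.6% upward (705 upward and 1964 downward, against 830 and 402 under TMM), and none overlapped between the groups, as for 22.0% of tested genes in that direction. MT2A was 1.80 ± 0.26 higher on the log2 scale (edgeR adjusted p = 0.000201), MT1X 1.65 ± 0.23, MT1E 1.26 ± 0.21 and SLC30A2 2.16 ± 0.50 (edgeR adjusted p = 0.000174, 0.000456 and 0.00253). For MT1E the fold was 2.39, 2.39 and 2.40 in numbers 1, 2 and 3. MT1F was 0.80 ± 0.31 higher (edgeR adjusted p = 0.0314). The MT1F call was lost without GLY_PUE replicate 3 (0.45, adjusted p = 0.174), without PUE replicate 2 (0.64, adjusted p = 0.115) and without all libraries numbered 3 (0.55, adjusted p = 0.135).

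PUE against untreated gave 0 calls among the 5 members, and 0% of tested genes were called. The log2 fold changes were −0.09 for MT2A, 0.06 for MT1X, 0.01 for MT1E, 0.09 for MT1F and −0.10 for SLC30A2. Their 95% intervals ran from −0.64 to 0.46, −0.44 to 0.55, −0.44 to 0.47, −0.58 to 0.77 and −1.15 to 0.95, so for SLC30A2 a change of up to about 1 on the log2 scale in either direction lies inside the interval. The groups overlapped for all 5 genes, and over the table they did not overlap for 3.3% of tested genes. Over the table, edgeR gave 12 genes at an unadjusted p under 0.05, and DESeq2 and limma-voom 0 calls with 4 and 14 such genes. These counts are below what a threshold of 0.05 gives on average when no gene changes. The 0 calls therefore do not show that PUE had no effect. The same holds for the counts given below for GLY_PUE against GLY and for the interaction.

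GLY_PUE against GLY also gave 0 calls among the members, with 0% of tested genes called, and the groups overlapped for all 5 (no overlap for 4.81% of tested genes). The log2 differences were −0.12 for MT2A (95% interval −0.67 to 0.43), −0.02 for MT1X (−0.51 to 0.47), −0.17 for MT1E (−0.62 to 0.29), −0.39 for MT1F (−1.05 to 0.27) and −0.42 for SLC30A2 (−1.44 to 0.60). SLC30A2 was lower in GLY_PUE within each number, at 0.618, 0.805 and 0.923 of its GLY level, and MT1F likewise at 0.546, 0.761 and 0.989. MT2A was lower within number 1 only, where GLY replicate 1 was high (0.671, against 1.13 and 1.16). Same-numbered libraries of GLY and GLY_PUE are not shown to be matched. By the labels GLY replicates 2 and 3 were at 13 and 14 h, and GLY_PUE libraries at 12 h. Over the table edgeR gave 57 genes at an unadjusted p under 0.05, and DESeq2 and limma-voom 0 calls with 49 and 59 such genes.

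The interaction asks whether the effect of GLY differed with PUE present. It passed for 0 of 5 members and 0% of tested genes (edgeR adjusted p = 0.999 for each member). The estimates ran from −0.49 for MT1F (95% interval −1.43 to 0.46) to −0.03 for MT2A (−0.81 to 0.74), and SLC30A2 had −0.32 (−1.79 to 1.14). edgeR gave 33 genes of the table at an unadjusted p under 0.05, DESeq2 22 and limma-voom 35, with 0 calls by either. Averaged over both settings of PUE, GLY raised MT2A by 1.82 ± 0.18, MT1X by 1.69 ± 0.17, MT1E by 1.35 ± 0.15, MT1F by 1.05 ± 0.22 and SLC30A2 by 2.32 ± 0.35 on the log2 scale, and 5 of 5 were called upward (edgeR adjusted p from 3.24e-06 to 0.000718), where 94.5% of tested genes were called and 23.0% upward (789 upward and 2453 downward, against 846 and 608 under TMM).

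**Figure D3:**
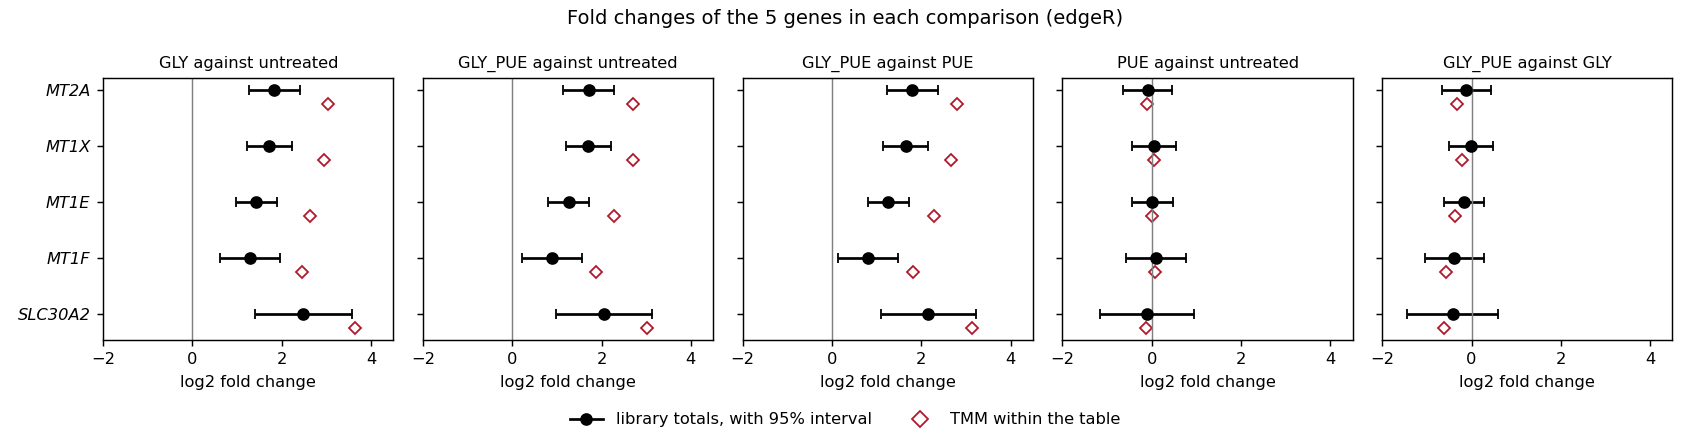
Log2 fold changes of the 5 genes in 5 comparisons (the first-named group over the second). Filled points with 95% intervals use library totals and open diamonds use TMM scaling within the table. The 3 comparisons that set GLY against no GLY lie above 0 under both scalings, and the intervals of the other 2 include 0.

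Scaling by TMM within the table, which assumes that most listed genes do not change, raised the log2 fold changes of all genes by a median of 1.13 in GLY and 1.01 in GLY_PUE against untreated. Under it the members in GLY against untreated came to 3.03 for MT2A, 2.94 for MT1X, 2.63 for MT1E, 2.46 for MT1F and 3.64 for SLC30A2. All 5 were called upward, as were 812 of the 3429 genes tested.

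Ratios between 2 members inside a library do not depend on that scaling, and show whether the members moved by equal amounts. Over 10 pairs, the log2 count ratio in the 6 libraries with GLY (GLY and GLY_PUE) was set against the 6 without (exact 2-sided permutation test over all splits of 12 libraries into 6 and 6, smallest possible p = 0.00216, p-values adjusted over the 10 pairs). Of the 10 pairs, 7 passed, so that in the deposited counts the increase was unequal among members. How often pairs of other listed genes would pass was not computed, so whether the count is particular to these genes is not known. The ratios below carry the uncertainty of reads shared between metallothioneins.

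MT1X over MT1E was −1.61 ± 0.10 with GLY and −1.95 ± 0.07 without (SD, n = 6 each), a difference of 0.34 with no overlap (exact permutation test, adjusted p = 0.0162). MT2A over MT1E was 2.02 ± 0.14 with GLY and 1.55 ± 0.24 without, a difference of 0.47 (exact permutation test, adjusted p = 0.0162). The increase of MT1E was thus smaller than those of MT2A and MT1X. MT1F also trailed: MT2A over MT1F differed by 0.79 and MT1X over MT1F by 0.66 (exact permutation test, adjusted p = 0.0253 and 0.0162). MT2A over MT1X differed by 0.13 and did not pass (exact permutation test, adjusted p = 0.374), nor did MT1E over MT1F at 0.33 (adjusted p = 0.0974, and 0.0357 without libraries numbered 3).

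Against SLC30A2 all 4 metallothioneins had lower ratios with GLY than without. MT1E over SLC30A2 differed by −1.12 (exact permutation test, adjusted p = 0.0162) and by −0.74 without libraries numbered 3 (adjusted p = 0.0357). MT1F over SLC30A2 differed by −1.45 (exact permutation test, adjusted p = 0.0253), and the call was lost without GLY or GLY_PUE replicate 1 or 2, each left out alone. MT2A over SLC30A2 differed by −0.66 (exact permutation test, adjusted p = 0.0464), and by −0.35 without libraries numbered 3 (adjusted p = 0.0357). It lost its call on FPKM values (−0.61, adjusted p = 0.0649), and with 8 of the 12 libraries left out singly, the smallest of these values being −0.47 without untreated replicate 3. MT1X over SLC30A2 differed by −0.79 without passing (adjusted p = 0.108), and passed with permutation inside replicate numbers (exact permutation test, adjusted p = 0.0231).

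**Figure D4:**
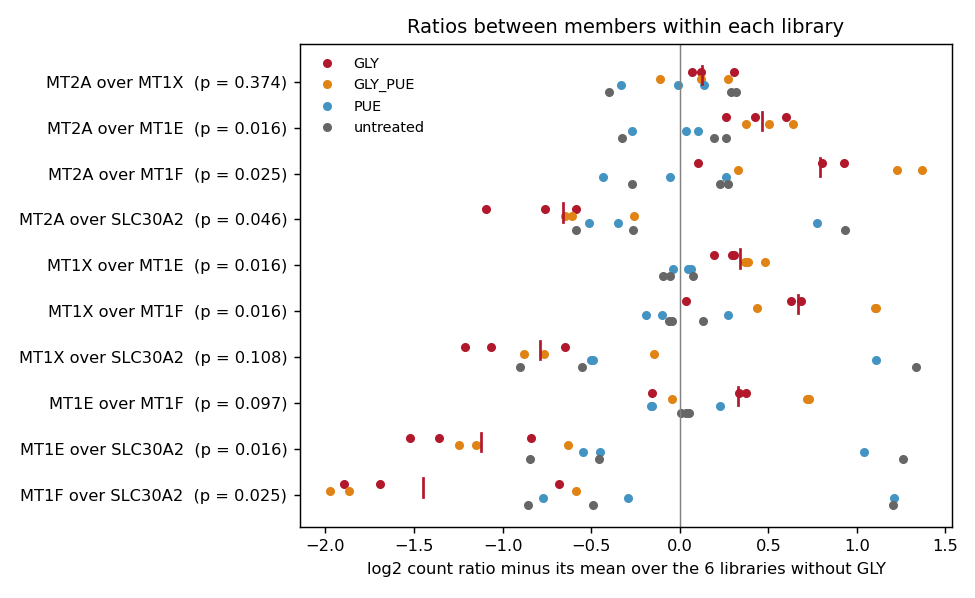
Log2 ratio of the counts of 2 members in each library, minus its mean over the 6 libraries without GLY, for the 10 pairs with adjusted p beside each name. Coloured points are libraries of the 4 groups and the red line is the mean with GLY. MT1X over MT1E separates fully at a difference of 0.34, and the 4 ratios to SLC30A2 lie to the left with wide spread.

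The promoters of MT2A, MT1X and SLC30A2 are shown because the MRE is the known metal-responsive element of this gene family. They are the 250 bases before the annotated start in RefSeq on GRCh38.p14: chr16:56608334-56608583 (forward strand) for MT2A, chr16:56682220-56682469 (forward) for MT1X and chr1:26046119-26046368 (reverse) for SLC30A2, each written 5′ to 3′ toward the start. Entries were matched for 3 of the 5 members, and MT1E and MT1F had none. The MRE was searched on both strands as TGCACNC or TGCGCNC, and capitals mark its matches.
MT2A: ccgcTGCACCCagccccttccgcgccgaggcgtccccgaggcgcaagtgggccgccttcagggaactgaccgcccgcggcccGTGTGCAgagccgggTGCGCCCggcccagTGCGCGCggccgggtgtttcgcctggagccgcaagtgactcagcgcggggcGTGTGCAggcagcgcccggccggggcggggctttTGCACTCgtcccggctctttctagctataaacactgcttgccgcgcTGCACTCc
MT1X: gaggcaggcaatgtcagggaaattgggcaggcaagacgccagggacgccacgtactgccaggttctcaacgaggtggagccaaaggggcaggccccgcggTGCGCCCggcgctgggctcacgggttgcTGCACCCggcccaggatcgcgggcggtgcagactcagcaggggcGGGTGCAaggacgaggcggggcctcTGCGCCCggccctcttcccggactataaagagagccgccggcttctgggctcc
SLC30A2: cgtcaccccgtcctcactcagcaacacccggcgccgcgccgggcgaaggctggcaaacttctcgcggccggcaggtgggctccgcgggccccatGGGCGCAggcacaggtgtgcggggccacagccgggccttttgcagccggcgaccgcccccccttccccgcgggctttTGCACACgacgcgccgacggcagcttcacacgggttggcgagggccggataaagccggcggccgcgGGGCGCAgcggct
MT2A held 7 matches, MT1X 4 and SLC30A2 3. Of 35116 RefSeq promoter windows of this length, 24.8% held at least 1 match, 1.58% at least 3, 0.37% at least 4 and 0.0313% (11 windows) at least 7. In SLC30A2 the matches lay at −156 to −150, −79 to −73 and −13 to −7 from the start. The AP-1 element TGACTCA, in 4.2% of windows, was found once in MT2A and in neither of the others. The core of the antioxidant response element, TGACNNNGC, in 10.9% of windows, had 1 match in MT2A, which overlaps the AP-1 match, 1 in MT1X and 0 in SLC30A2. A match is a run of letters and says nothing about binding in these cells.

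**Figure D5:**
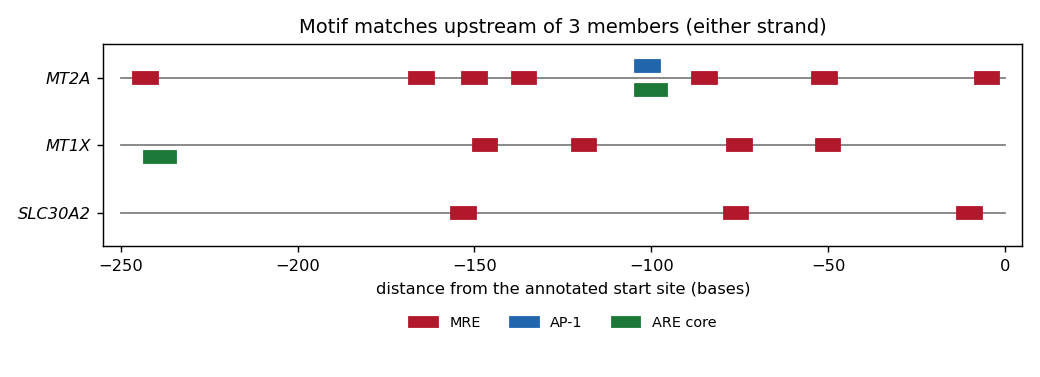
Matches of the MRE, AP-1 and ARE core letters on either strand in the 250 bases before the start site of MT2A, MT1X and SLC30A2, drawn to scale by distance from the start. MT2A has 7 MRE matches, MT1X 4 and SLC30A2 3, and the AP-1 match of MT2A overlaps its ARE core match.

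Few relatives of these genes were in the table. Of 14 other metallothionein genes looked up, 2 were listed. MT3 had 0 to 13 reads per library and did not pass the filter on low counts. MT1A had 8.85 ± 2.60 CPM in GLY, 6.67 ± 0.48 in GLY_PUE, 13.2 ± 3.45 in PUE and 13.6 ± 3.02 in untreated libraries (SD, n = 3 each). It fell by 1.03 on the log2 scale in GLY_PUE against untreated (edgeR adjusted p = 0.00712), a call that TMM scaling removes (0.00), and did not pass in GLY, where its value was −0.62 and under TMM 0.60. MT1A thus had no upward call under either scaling, and its reads can be shared with near copies as those of the members can.

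Of 9 other genes of the SLC30 family of zinc exporters, 1 was listed: SLC30A3, which loads zinc into synaptic vesicles, had −0.70 in GLY without passing and fell by 1.00 in GLY_PUE against untreated (edgeR adjusted p = 0.0322), with TMM values of 0.54 and 0.02. Of 14 SLC39 genes, which bring zinc into the cytosol, 3 were listed. SLC39A13 rose by 1.03 in GLY and in GLY_PUE against untreated (edgeR adjusted p = 0.00273 and 0.00305). SLC39A8 and SLC39A10 fell by 1.36 and 1.43 in GLY and by 1.19 and 1.08 in GLY_PUE, and did not pass under TMM scaling. Of 16 genes of metal regulation and of copper and iron handling, 3 were listed. FTH1, the ferritin heavy chain that stores iron, rose by 1.08 in GLY (edgeR adjusted p = 0.0208) and had 0.84 in GLY_PUE (adjusted p = 0.0593). Under TMM, FTH1 was called upward in both, at 2.26 and 1.81 (edgeR adjusted p = 0.00394 and 0.0139). ATP7A, a copper-exporting ATPase, fell by 1.42 and 1.05 in these comparisons, both calls lost under TMM. SLC40A1, the iron exporter ferroportin, was called lower in both, with 0.0945 to 0.281 CPM in GLY and 0.141 to 0.328 in GLY_PUE, close to the limit of detection, against 0.84 to 2.91 CPM in untreated libraries.

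Of 10 genes of the metal and oxidant stress response, 9 were listed. In GLY against untreated 7 of 9 rose and 0 fell, with a median of 1.16, and in GLY_PUE against untreated 9 of 9 rose, with a median of 1.39, beside the medians of all tested genes and the upward shares given above. Under TMM 9 of 9 rose in both. HMOX1, heme oxygenase, rose by 2.67 in GLY and 2.66 in GLY_PUE (edgeR adjusted p = 0.000634 and 0.000717). HSPA1A, an inducible heat shock protein, rose by 2.88 and 2.84, and SRXN1, which restores oxidised peroxiredoxins, by 1.63 in both. SLC7A11 and GCLM, which supply cystine and glutathione, had 0.67 and 0.81 in GLY without passing, and rose by 1.04 and 1.08 in GLY_PUE. In CPM, SLC7A11 ran from 16.4 to 76.9 in GLY libraries against 30.5 to 35.3 in untreated ones, and so overlapped. GCLM had 47.5 to 209 against 66.2 to 85.4. GCLC (53.2 to 236 against 63.7 to 68.8) and TXNRD1 (313 to 878 against 239 to 330) were called though they overlapped too. In HMOX1, HSPA1A, HSPA1B, DNAJB1 and SRXN1 every GLY library lay above every untreated one, as for 17.8% of tested genes. Of 8 genes induced by glucocorticoids 3 were listed: DUSP1, a phosphatase of MAP kinases, rose by 1.91 in GLY and 1.97 in GLY_PUE, SGK1, a kinase, by 1.18 and 1.38, while CEBPD, a transcription factor, fell by 1.17 and 1.28 with both calls lost under TMM (0.02 and −0.28). None of these lists had a member called in PUE against untreated.

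By Pearson correlation of log2 CPM over the 12 libraries, among the 2330 genes averaging 1 or more on that scale, the genes most like MT2A were STX1A (0.991), CAMTA2 (0.991) and MDFI (0.991). MT1E stood at place 37 in that order (0.979), MT1X at 72 (0.971), SLC30A2 at 144 (0.949) and MT1F at 381 (0.832). Most like SLC30A2 were PLAUR (0.998), FAM83G (0.996) and VPS37B (0.996), with MT2A at place 122. These are descriptions: the 12 libraries share the split by GLY, which lifts every such value, and the libraries numbered 3.

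Markers of cell types were looked up too, and 2 of 12 colon epithelium markers were in the table, CDX2 and VIL1. A gene is listed only where it changed in at least 1 of the authors' comparisons. The list therefore cannot check the line's identity. Their summed level was 12.1 to 20.8 CPM in GLY, 13.5 to 15.4 in GLY_PUE, 70.7 to 96.3 in PUE and 70.2 to 94.5 in untreated libraries. Of markers of other cells, 2 of 5 leukocyte genes (CD68 and CD14) summed to 17.1 to 24.4 CPM in GLY and 17.8 to 23.5 in GLY_PUE, against 5.37 to 5.99 in PUE and 4.63 to 6.91 in untreated libraries, nearly all of it CD68, a lysosomal protein gene. CD14 was lower with GLY, at a mean of 0.11 CPM in GLY and 0.924 in untreated libraries. The 1 listed fibroblast gene of 6, PDGFRB, had 1.64 to 3.57 CPM in GLY, 1.74 to 3.74 in GLY_PUE, 0.689 to 0.915 in PUE and 0.838 to 0.995 in untreated libraries. Of 3 endothelial and 5 retinal markers 0 were in the table, which does not show that they were not expressed. These levels differed between libraries with and without GLY, and their part in the members' values was not tested.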

How the data were processed

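RNA of SW480 cells was sequenced in 12 libraries of 4 groups (BGISEQ500, per the labels' protocols). The extraction text also mentions retinas, and the sample descriptions number the cell name upward from SW480 to SW491, while every cell line field gives SW480. The authors deposited 1 table. It gives, per the file headers, read counts by gene and library, which are estimated counts with fractions and no normalization, and an expression value without a stated unit, which from its values is FPKM. The authors also deposited log2 ratios, p-values and q-values for pairs of groups, per the file headers. The submitters' processing notes name TopHat and DESeq 1.32.0 without saying what each did. How reads were counted, and on which build and annotation, is not given in the sources used here.

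The table's sums are not library depths, so relative totals were recovered from the count to FPKM ratio of 625 genes (at least 100 counts and an FPKM of 5 in every library) and put on an absolute scale by the lengths of 39 protein-coding genes that have 1 transcript each in GENCODE release 29, giving 20.2 M reads for untreated replicate 1 (95% bounds of the slope 20.0 and 20.7). Counts were rounded and tested over all 12 libraries with edgeR 4.0.16 in R 4.3.3 (filterByExpr, robust quasi-likelihood fit of the 4 groups, recovered totals with no further scaling, Benjamini-Hochberg adjustment over 3429 genes, threshold 0.05). The fit was tested on simulated data. All 5 members passed the filter. Ratios between members used counts plus 0.5.

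Alternatives tried were scaling by TMM or RLE, DESeq2 1.42.0, limma-voom and limma-trend on log2 FPKM (limma 3.58.1), other filters and thresholds, only the libraries compared, a replicate block, and libraries left out. No replicate pair agreed within sampling noise (lowest chi-square per gene 2.13). Deviations of same-numbered libraries from their group means correlated above 0.1 in all 3 numbers for GLY_PUE with untreated (0.194, 0.192 and 0.382), PUE with untreated (0.484, 0.389 and 0.702) and GLY_PUE with PUE (0.192, 0.173 and 0.397). In each of these groups number 3 stood apart from numbers 1 and 2, which by itself can give such correlations. Whether the numbers pair the groups is therefore not settled by these values. The named genes are the members, every listed gene of 6 lists of relatives and inducible genes, and the 3 genes most like MT2A and SLC30A2. Members and lists were chosen with earlier results of these data known.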

Additional observations from a re-analysis of the deposited data

How the results depend on the processing

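The 5 upward calls in GLY against untreated and in the average effect of GLY held under every alternative that was run, and the counts of 0 in PUE against untreated, GLY_PUE against GLY and the interaction stayed at 0 of 5. In GLY_PUE against untreated and against PUE the count was 4 of 5 without libraries numbered 3 and at an adjusted p under 0.01, and 4 to 5 with single libraries left out, MT1F being the member lost. Over all members and comparisons, 857 alternative values stayed on their side of the threshold and 8 lost the call. Of 495 alternatives to called values 0 changed sign, and of 370 alternatives to values that were not called 32 did. Scaling moved the counts of called genes by more than 1.5 times, to 1158 under TMM and 1188 under RLE from 2890 in GLY against untreated, 1211 and 1234 from 2651 in GLY_PUE against untreated, 1232 and 1250 from 2669 in GLY_PUE against PUE, and 1454 and 1500 from 3242 in the average effect. Without GLY_PUE replicate 2, 1 gene was called in GLY_PUE against GLY and in the interaction, which is no member. The number of member pairs that passed was 7, 6 on FPKM values, and 5 to 8 with single libraries left out. With the replicate block 8 pairs passed and no member call changed. In the fits with a block 3086 genes were called in GLY against untreated and 2926 in GLY_PUE against untreated. The same-number correlations were 0.056, 0.0973 and 0.271 for GLY with untreated, and 0.0781, 0.304 and 0.316 for GLY_PUE with GLY. Of the 12 libraries, 10 correlated best with their own number, a hint from the data that does not settle the pairing. Counting error was at most 13.7% for a member in any library (SLC30A2). A fit to only the libraries compared was not run for the interaction and the average effect, which use all 12. Where 1 library of a group was left out, the remaining ones were assumed to vary like the other groups.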

Other observations

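In the authors' deposited table, MT2A in PUE against untreated has a log2 ratio of −0.0867 with a q-value of 2.63e-10, and MT1E in GLY_PUE against GLY −0.167 with a q-value of 1.97e-38. Over the same libraries, edgeR's quasi-likelihood test gave log2 fold changes of −0.09 and −0.17 with unadjusted p-values of 0.734 and 0.444 for MT2A and MT1E. MT2A in PUE was at 0.938, 0.854 and 1.06 times its untreated level within numbers 1, 2 and 3.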
